A study of Eublepharis macularius with 8 samples.

Results

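The DLX and MSX homeobox genes were followed in whole teeth from adult leopard geckos, Eublepharis macularius. Teeth of this lizard are shed and replaced for as long as it lives. The genes were DLX1, DLX2, DLX3, DLX5, DLX6, MSX1 and MSX2, taken by exact symbol from the deposited count table. All 7 were found among its 22488 rows, and all 7 passed the filter on low counts that left 15491 genes for testing. Functional teeth, those in use, were compared with developing teeth, their replacements still being formed, with 4 libraries of each. Replicates 1 to 3 of each tissue were female, with 3 teeth in a library. Replicate 4 was male, with 10 teeth in the functional and 11 in the developing library. No genotype or treatment is named for any group, and each library pools several teeth. The sample titles call the libraries biological replicates (Biolrep) and name no animals. Whether different libraries come from different animals is not stated beyond that. The p-values therefore measure the spread between these libraries, which may be technical in part.

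DLX and MSX genes encode homeodomain transcription factors, proteins that bind DNA and switch other genes on or off. In mouse, BMP and FGF signals from the tooth epithelium induce several of them in the jaw mesenchyme, where MSX1 is needed for the tooth germ to develop past the bud and DLX1 and DLX2 together are needed for upper molars. Later, MSX2 acts in enamel-forming ameloblasts, and DLX3 and DLX5 act in ameloblasts, odontoblasts and bone cells. DLX genes lie in neighbouring pairs in vertebrates. The RefSeq gene table of assembly MPM_Emac_v1.0 showed that arrangement in the gecko, with no protein-coding gene between DLX1 and DLX2, between DLX3 and DLX4 or between DLX5 and DLX6.

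Libraries held between 14144573 and 30935120 estimated counts, with RNA integrity numbers between 8.8 and 9.6. The collagen genes COL1A1 and COL1A2 took between 29.2% and 33.2% of counts in functional libraries, and 20.6%, 18.6%, 5.73% and 4.37% in developing replicates 1 to 4. Scaling by TMM, which sets library sizes so that most genes do not differ, gave the functional libraries factors of 0.752 to 0.853 and the developing libraries factors of 1.104 to 1.386. The dentin matrix gene DSPP was at 1493 CPM (counts scaled to TMM-adjusted library size) or more in every library. The enamel matrix gene AMELX was at 2163 CPM or more in each developing library. It was at 470.0 CPM in functional replicate 1 and between 3.56 and 3.91 CPM in functional replicates 2 to 4.

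Every one of the 7 genes averaged less in functional than in developing teeth, and none passed edgeR's quasi-likelihood test over all genes. The log2 fold changes, functional minus developing, lay between -1.0 for DLX2 and -0.26 for DLX6 with a median of -0.52, where the median of all 15491 genes was 0.00. With Benjamini-Hochberg adjustment, 0 of the 7 were called, against 2.01% of all genes called lower and 0.800% called higher at an adjusted p under 0.05. At an unadjusted p under 0.05, 3 of the 7 were lower (DLX2, DLX3 and MSX2), where 12.8% of all genes were. For the same 3 genes each functional library lay below each developing library, which held for 8.60% of all genes. DESeq2's Wald test called these 3 genes lower at an adjusted p under 0.05. It called 6.30% lower among the 15224 genes to which it gave an adjusted p. In whole teeth, fewer cells of a type and less RNA per cell cannot be told apart. No transcript lengths were used, so levels are compared between libraries for 1 gene and not between genes.

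**Figure D1:**
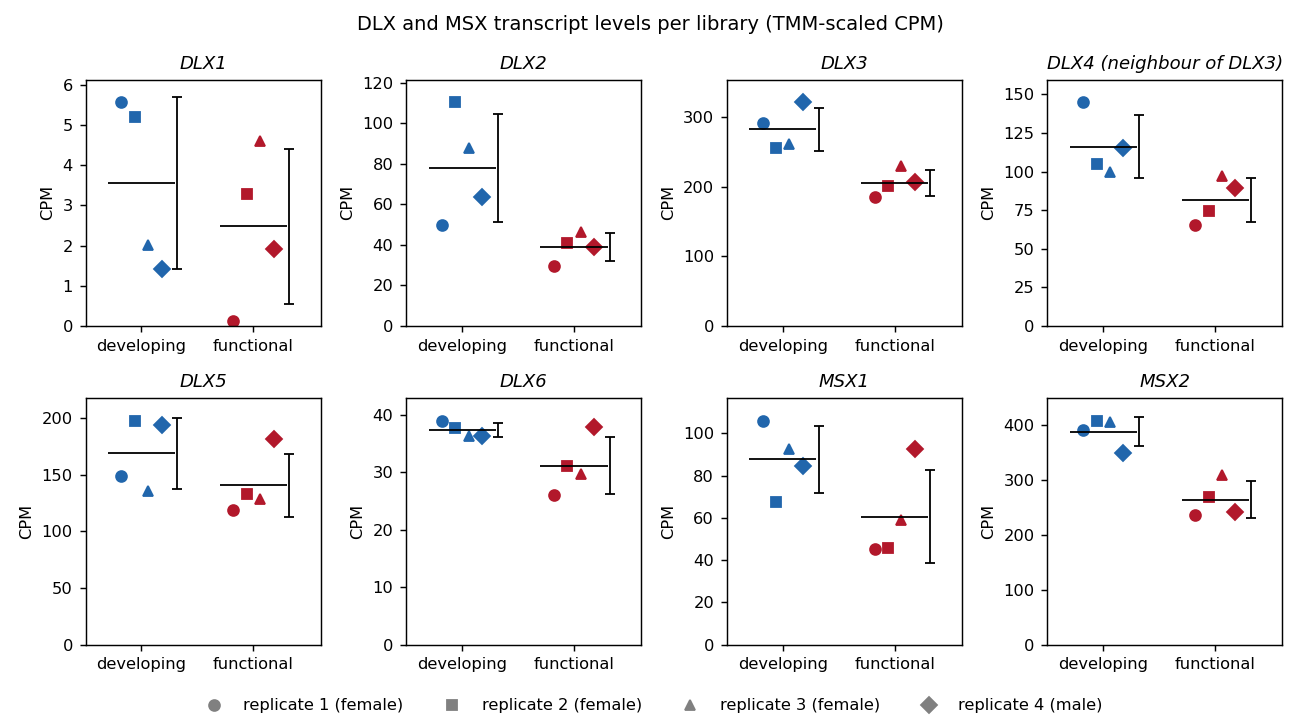
CPM on TMM-scaled library sizes (y axis, from 0, with its own range in each panel) in the 4 developing and 4 functional libraries for the 7 genes and for DLX4, the neighbour of DLX3. Points are libraries, horizontal lines are group means and bars are ± 1 SD; functional points lie below all developing points for DLX2, DLX3, DLX4 and MSX2, and functional replicate 4 reaches the developing range for DLX5, DLX6 and MSX1.

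MSX2, which in mouse is expressed in dental epithelium and mesenchyme and is required for normal enamel, had the smallest p of the 7. It was at 390.3, 408, 405 and 349 CPM in developing replicates 1 to 4. In functional replicates 1 to 4 it was at 236, 268, 309.7 and 242 CPM. The developing libraries were close together, with a mean of 388 ± 27.2 CPM (SD, n = 4), and the groups did not overlap. The functional mean was 264 ± 33.3 CPM, 0.680 times the developing mean in the fit (log2 fold change -0.56 ± 0.13 SE, 95% interval -0.86 to -0.25, adjusted p = 0.0656). The adjusted p was 0.00509 with DESeq2.

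MSX1, whose loss in mouse arrests teeth at the bud stage, overlapped between the tissues. It was at 106, 67.7, 92.4 and 84.7 CPM in developing replicates 1 to 4. It was at 45.4, 45.5, 59.0 and 92.4 CPM in functional replicates 1 to 4. The 3 female functional libraries lay below every developing library, and the male functional library lay among the developing ones. This split was seen in the values and not set beforehand, and how many of all genes show it was not counted. Over all libraries the means were 87.6 ± 15.8 and 60.6 ± 22.1 CPM (log2 fold change -0.53 ± 0.26, 95% interval -1.13 to 0.07, adjusted p = 0.273). Without functional replicate 4 the log2 fold change was -0.81, and among the 6 female libraries it was -0.83 ± 0.20 (adjusted p = 0.152).

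DLX2, which acts with DLX1 in the first branchial arch, had the largest fold change of the 7. It was at 50.0, 110.4, 87.7 and 63.8 CPM in developing replicates 1 to 4. It was at 29.7, 40.8, 46.5 and 38.8 CPM in functional replicates 1 to 4. Developing libraries spread more than functional ones, and the nearest libraries of the groups, developing replicate 1 and functional replicate 3, stood 50.0 against 46.5 CPM. The means were 77.9 ± 26.7 and 39.0 ± 6.95 CPM (log2 fold change -1.0 ± 0.26, 95% interval -1.60 to -0.40, adjusted p = 0.081). The adjusted p was 0.0135 with DESeq2, and 0.0537 in an edgeR fit that blocked on replicate number.

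DLX1 was the only one of the 7 with few counts, between 2 and 136 per library. Its level was 5.57, 5.20, 2.02 and 1.42 CPM in developing replicates 1 to 4. In functional replicates 1 to 4 it was 0.113, 3.29, 4.60 and 1.91 CPM, where the first value rests on 2 counts. The groups overlapped over most of their range. The log2 fold change of -0.52 ± 0.82 had a 95% interval from -2.39 to 1.36 (adjusted p = 0.742), an interval that holds both a fall and a rise of more than 1 log2 unit. Without functional replicate 1 it was -0.12, and without functional replicate 3 it was -0.99.

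DLX3, mutated in the human tricho-dento-osseous syndrome, in which enamel and dentin are defective, varied little within each tissue. It was at 291, 255, 260.3 and 321 CPM in developing replicates 1 to 4. It was at 185, 200.4, 229 and 207 CPM in functional replicates 1 to 4. The highest functional library was below the lowest developing library. The means were 282 ± 30.4 and 205 ± 18.2 CPM (log2 fold change -0.46 ± 0.13, 95% interval -0.76 to -0.15, adjusted p = 0.101, or 0.017 with DESeq2). DLX4, the gene next to DLX3 in the reference table, was at 145, 105, 99.5 and 115 CPM in developing and at 65.2, 74.5, 97.1 and 89.3 CPM in functional replicates 1 to 4. Its groups did not overlap either, by a narrow margin, and its log2 fold change was -0.51 ± 0.18 (adjusted p = 0.162). The log2 ratio of DLX3 to DLX4 counts within a library averaged 1.29 ± 0.21 in developing and 1.35 ± 0.14 in functional teeth.

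DLX5, an activator of osteoblast genes in mouse bone, and DLX6, its neighbour, had the smallest differences. DLX5 was at 149, 198, 136 and 194 CPM in developing replicates 1 to 4 and at 119, 133, 129 and 182 CPM in functional replicates 1 to 4. The ranges overlapped, with the male library the highest of the functional ones (log2 fold change -0.27 ± 0.19, 95% interval -0.71 to 0.18, adjusted p = 0.45). Without functional replicate 4 it was -0.41, and without developing replicate 2 it was -0.18. DLX6 was at 39.0, 37.7, 36.4 and 36.3 CPM in developing replicates 1 to 4, the narrowest spread of any of the 7 in either tissue relative to its mean (3.38%). It was at 26.0, 31.1, 29.7 and 37.9 CPM in functional replicates 1 to 4, so the groups overlapped. The 3 female functional libraries lay below all developing libraries and the male one did not. That split was read off the values afterwards and was not counted over all genes. The log2 fold change of DLX6 was -0.26 ± 0.12 (95% interval -0.54 to 0.02, adjusted p = 0.249), or -0.38 ± 0.12 among the female libraries (adjusted p = 0.218).

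**Figure D2:**
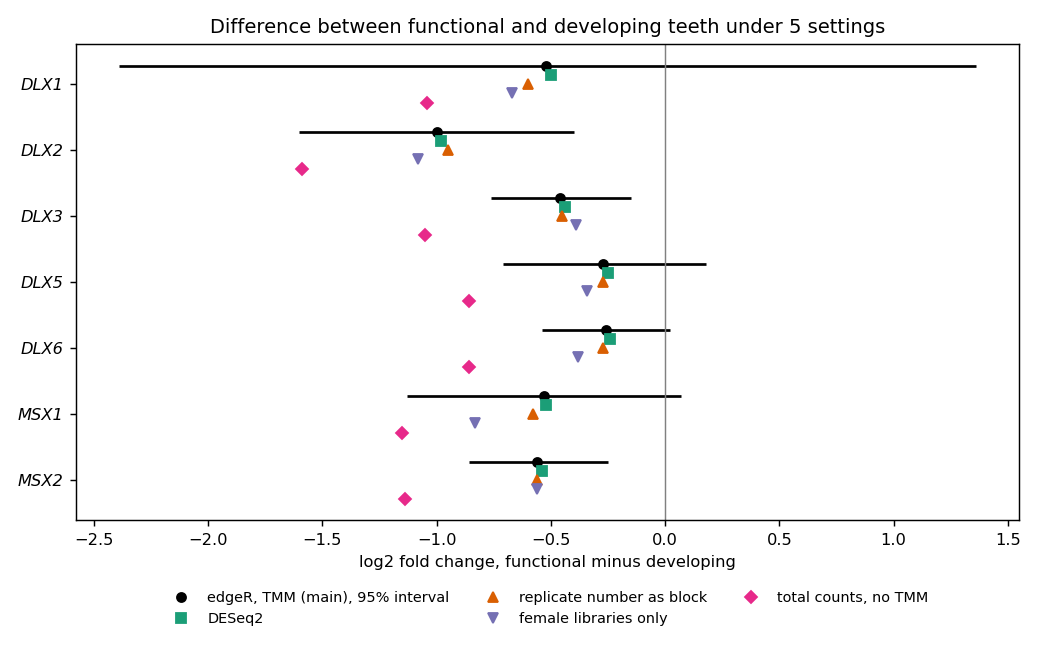
Log2 fold change (x axis, functional minus developing, negative where functional teeth were lower) of the 7 genes (rows) in the main edgeR fit with its 95% interval and under 4 other settings. Each point is negative; the points on total counts without TMM scaling lie furthest left, between -0.86 and -1.59, in a setting where the median of all genes was -0.59.

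All 7 log2 fold changes stayed negative under each scaling run, and their size depended on the scaling. The runs reuse the same libraries, and how many of all genes kept their sign was not counted. On total counts without TMM factors, an alternative added after the data were seen, the log2 fold changes had a median of -1.05 while the median of all tested genes moved to -0.59. In that setting 6 of the 7 genes, all but DLX1, were called lower, as were 48.1% of all genes, and 1.99% of the calls were higher against 28.4% with TMM. With DESeq2 42.9% of the calls were higher. The size factors of DESeq2 used in edgeR, upper-quartile scaling and library sizes without COL1A1 and COL1A2 left 0 of the 7 genes called, where 1.95%, 2.09% and 1.95% of all genes were called lower in that order.

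Same-numbered libraries were also set side by side. MSX2, DLX2, DLX3 and DLX5 were lower in the functional library of all 4 numbers. For MSX2, DLX2 and DLX3 any pairing would give this, since their groups do not overlap, so it adds nothing to that result. How many of all genes were lower in all 4 numbers was not counted. For MSX2 the log2 differences were -0.72, -0.61, -0.39 and -0.53 in numbers 1 to 4, and for DLX2 they were -0.75, -1.44, -0.91 and -0.71. For DLX3 they were -0.65, -0.35, -0.19 and -0.63. MSX1 and DLX6 were lower in the 3 female numbers and not in the male number 4, where the differences were 0.13 and 0.06. MSX1 differed by -1.22, -0.57 and -0.65 in numbers 1 to 3, and DLX6 by -0.59, -0.28 and -0.29. DLX1 ranged from -4.80 in number 1 to 1.15 in number 3.

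**Figure D3:**
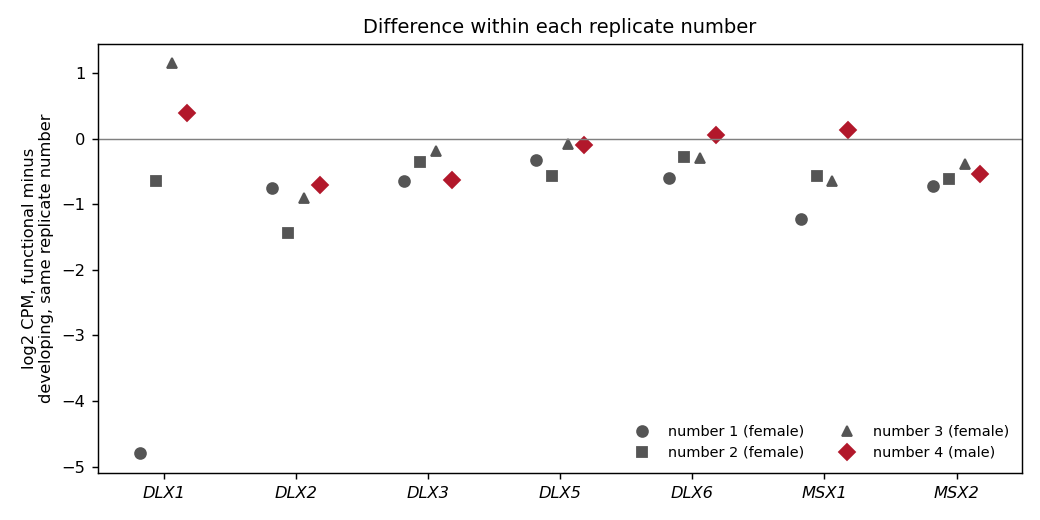
Difference in log2 CPM (prior count 2) between the functional and the developing library of the same replicate number (y axis) for the 7 genes (x axis), with 1 point per number and the male number 4 in red. MSX2, DLX2, DLX3 and DLX5 lie below 0 in all 4 numbers, as any pairing would give for the first 3, whose groups do not overlap. MSX1 and DLX6 are above 0 in number 4 at 0.13 and 0.06.

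How far the tissue difference itself differed between the male pair and the female libraries was estimated by the interaction of tissue and sex. With 1 male library per tissue, the spread in that fit comes from the female libraries, and the male ones are assumed to vary like them. The interaction was 0.95 ± 0.42 for MSX1 and 0.44 ± 0.23 for DLX6 on the log2 scale (edgeR). No call of the 7 genes is read from this fit, which cannot show whether a difference in the male pair would repeat. Given tissue, male minus female differences ranged from -0.99 ± 0.97 for DLX1 to 0.45 ± 0.25 for MSX1. Of the 7 genes, 0 passed, where edgeR called 4.68% of all genes. At an unadjusted p under 0.05 there were 0 of the 7 and 21.0% of all genes. DESeq2 called 0 of the 7, where it called 1730 genes in all. This term counts both male libraries as separate samples, though they share a replicate number, so its p-values are too small if the numbers are pairs. Sex and the number of teeth per library cannot be told apart, since both male libraries hold more teeth. Nor can they be told apart from any other difference that the male pair shares. The male functional library also had the highest summed level of 8 odontoclast markers, 1849 CPM against 371 to 665 in the other functional libraries and 126 to 309 in developing ones. Its summed level of 7 macrophage markers was the highest too, 339 CPM against 106 to 147 in the other functional libraries and 47.6 to 78.4 in developing ones. The part of these cells in the MSX1 and DLX6 values was not tested.

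The balance between related genes was compared as the log2 ratio of their counts within a library, which does not depend on library scaling. The ratio of MSX1 to MSX2 averaged -2.16 ± 0.30 in developing and -2.18 ± 0.53 in functional teeth. It was -1.39 in functional replicate 4 and between -2.55 and -2.38 in functional replicates 1 to 3. The difference of -0.02 did not pass an exact permutation test (two-sided, p = 0.971, adjusted p = 0.971 over 3 ratios), and the 16 pairwise differences between a functional and a developing library ran from -0.67 to 1.20. For DLX5 to DLX6 the averages were 2.16 ± 0.28 and 2.17 ± 0.08, a difference of 0.01 with pairwise differences from -0.32 to 0.36 (exact permutation test, adjusted p = 0.971). Developing libraries fell at 1.94 and 1.90 in replicates 1 and 3 and at 2.39 and 2.42 in replicates 2 and 4, and all functional libraries lay between these. The ratio of DLX1 to DLX2 ran from -7.72 in functional replicate 1, with 2 counts of DLX1, to -3.16 in developing replicate 1. Its difference of -0.14 did not pass (exact permutation test, adjusted p = 0.971). The smallest p this test can give with 4 against 4 libraries is 0.0286.

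**Figure D4:**
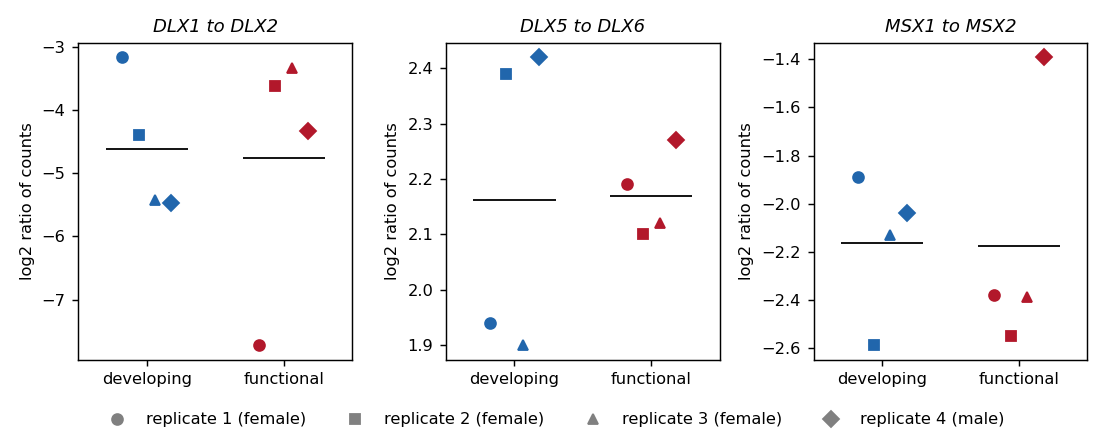
Log2 ratio of estimated counts within a library (y axis, separate range in each panel) for DLX1 to DLX2, DLX5 to DLX6 and MSX1 to MSX2 in developing and functional libraries, with points for libraries and lines for group means. Group means are close in each panel, and functional replicate 4 stands at -1.39 for MSX1 to MSX2, above the other functional libraries.

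Within the tissues, the genes did not share 1 order of libraries. Functional replicate 4 was the highest functional library for DLX5, DLX6 and MSX1, and functional replicate 3 the highest for DLX1, DLX2, DLX3 and MSX2. Functional replicate 1 was the lowest functional library for all 7. Among developing libraries, replicate 1 was the highest for MSX1, DLX1 and DLX6 and the lowest for DLX2. As a description of likeness, deviations of log2 CPM from the tissue mean were correlated over the 8 libraries with those of other named genes averaging at least 10 CPM, 8295 or 8296 candidates for each. The closest genes were GCLM (Pearson r = 0.992) and SLC25A6 (0.983) for MSX2, and TCIRG1 (0.963), a proton pump subunit gene of odontoclasts, and C2CD4D (0.961) for MSX1. They were TPRG1L (0.943) and RPL11 (0.921) for DLX2, and GATA1 (0.962) and NME6 (0.923) for DLX3. For DLX5 they were CIB1 (0.996) and ECHS1 (0.985), for DLX6 PGAM1 (0.967) and PRR7 (0.942), and for DLX1 GABARAPL2 (0.983) and AGK (0.963). These are the highest of a great many values over few libraries that share depth and composition, and no test was made.

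Related genes were read from lists fixed with earlier results of these data known. Calls in each list stand beside 0.800% of all genes called higher and 2.01% called lower. Of 25 other homeobox genes, mostly of the NK-like class to which DLX and MSX belong and with DLX4 among them, 24 were in the table and 7 passed the low-count filter, with 2 higher and 0 lower in functional teeth. BARX2, a homeobox gene of epithelium and muscle in mouse, rose by 3.02 ± 0.60 on the log2 scale, from 10.3 ± 7.86 to 83.7 ± 27.1 CPM (adjusted p = 0.0427). HLX, known from mesenchyme and blood cells in mouse, rose from 2.51 ± 0.690 to 6.17 ± 1.12 CPM (1.30 ± 0.26, adjusted p = 0.043). BARX1, which marks molar-forming mesenchyme in mouse, was spread over 1.30 to 25.9 CPM in functional and 5.70 to 49.6 CPM in developing libraries (adjusted p = 0.664).

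Among 24 tested transcription factors of tooth development outside the DLX and MSX genes, 2 were lower and 0 higher, with a median log2 fold change of 0.01. LHX8, a homeobox gene of tooth mesenchyme that acts with LHX6, fell from 71.7 ± 19.3 to 21.5 ± 6.30 CPM (-1.74 ± 0.27, adjusted p = 0.0276). SP6, an ameloblast factor, went from 161 ± 67.0 to 22.8 ± 7.95 CPM (-2.82 ± 0.36, adjusted p = 0.0196). ISL1, a homeobox gene of tooth epithelium in mouse, had low levels, 0.284 to 0.564 CPM in functional and 0.615 to 2.88 CPM in developing libraries. Its log2 fold change of -2.04 ± 0.54 did not pass (adjusted p = 0.083). PAX9, which acts with MSX1 in mouse tooth mesenchyme, overlapped between tissues, at -0.18 ± 0.18 (adjusted p = 0.571).

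The BMP pathway, which induces MSX and DLX genes in mouse, had 1 higher and 1 lower gene among 28 tested. Among all genes 0.800% were called higher and 2.01% lower, so these few calls are not read as a result about the pathway. A negative log2 fold change was seen in 24 of the 28 (median -0.33), and in 7716 of all 15491 genes. The list mixes ligands and receptors with antagonists such as FST, NOG and CHRD, so the count does not give a direction of signaling. GDF6, a BMP family ligand, fell from 1.40 ± 0.553 to 0.384 ± 0.0689 CPM (-1.84 ± 0.37, adjusted p = 0.0427). BMPR1B, a type I BMP receptor, rose from 5.40 ± 1.23 to 13.0 ± 3.46 CPM (1.26 ± 0.25, adjusted p = 0.0427). FST, the gene of the activin and BMP antagonist follistatin, had no count in functional replicates 2 and 3, 0.0564 and 0.217 CPM in functional replicates 1 and 4 and between 0.507 and 8.15 CPM in developing libraries (adjusted p = 0.0574). BMP4, the ligand that maintains MSX1 in mouse tooth mesenchyme, had a mean of 44.5 ± 15.1 CPM in developing teeth and of 47.4 ± 13.2 CPM in functional teeth (0.09 ± 0.28, adjusted p = 0.871). BMP2 (-0.20 ± 0.20, adjusted p = 0.582) and the BMP target ID1 (-0.30 ± 0.21, adjusted p = 0.441) did not pass, and ID3, another target, averaged higher in functional teeth (0.49 ± 0.14, adjusted p = 0.0931).

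Genes described in mouse or in cell lines as depending on MSX1, MSX2, DLX3 or DLX5 moved both ways. Of 28 listed, 25 were in the table and 24 were tested, with 3 lower, 1 higher and a median log2 fold change of 0.22. PTCH1, the hedgehog receptor, fell by 4.03 ± 0.52 (adjusted p = 0.0196), and ALPL, the phosphatase of mineralization, fell by 2.51 ± 0.39 (adjusted p = 0.0276). The FGF3 growth factor gene, which needs MSX1 in mouse tooth mesenchyme, had no count in functional replicate 3, at most 0.162 CPM in the other functional libraries and between 0.599 and 7.77 CPM in developing ones (adjusted p = 0.0424). BGLAP, the osteocalcin gene, rose from 0.709 ± 0.259 to 9.15 ± 6.02 CPM (3.67 ± 0.54, adjusted p = 0.0258). RUNX2 (0.30 ± 0.22, adjusted p = 0.448) and SP7 (0.69 ± 0.39, adjusted p = 0.329), bone and odontoblast factors downstream of DLX5 in mouse, did not pass.

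**Figure D5:**
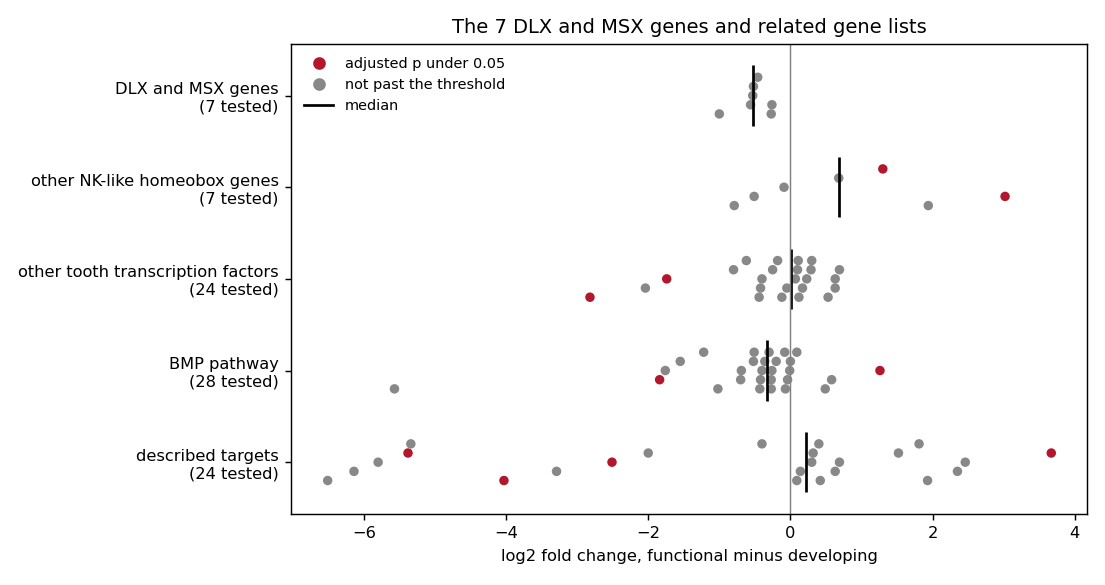
Log2 fold change (x axis, functional minus developing) of each tested gene of the 7 DLX and MSX genes and 4 related lists (rows), with red points past an adjusted p of 0.05 and vertical lines for medians; FST and FGF3, with functional libraries at 0, sit at fitted values that depend on the prior count. The 7 genes lie between -1.0 and -0.26 with no red point, and the list medians are 0.68, 0.01, -0.33 and 0.22 from top to bottom.

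Summed levels of some cell type markers differed between the tissues without overlap, and others overlapped. The summed level of the 6 ameloblast markers in the table (of 8 listed) ran from 5208 to 33411 CPM in developing libraries. In functional replicates 1 to 4 it was 1239, 121, 139 and 55.2 CPM. The summed level of 7 markers of cycling cells (of 8) ran from 81.0 to 228 CPM in developing and from 31.0 to 62.2 CPM in functional libraries. The 8 odontoblast markers, mostly collagen, summed to 36799 to 192202 CPM in developing and to 403643 to 429174 CPM in functional libraries. Sums of the 5 epithelial markers in the table (of 12) overlapped, at 470.2 to 1974 and 418 to 829.9 CPM. So did sums of the 12 markers of dental mesenchyme and fibroblasts, at 4178 to 11126 and 8144 to 12812 CPM. COL3A1 took the largest part of the latter. Of these 12 genes 9 had a positive log2 fold change and 3 a negative one: LHX8 (-1.74), LHX6 (-0.62) and PAX9 (-0.18). The sums of endothelial markers (37.8 to 90.1 against 100.3 to 159.7 CPM, 8 of 8 markers) were higher in each functional library than in any developing one. So were those of macrophage markers (47.6 to 78.4 against 106 to 339 CPM, 7 of 8). Gene by gene, this held for 4 of 8 endothelial, 3 of 7 macrophage and 6 of 8 odontoblast markers, and for 994 of all 15491 genes. DSPP and IBSP, of the odontoblast list, overlapped between the tissues. Each functional library lay below each developing one for 6 of 6 ameloblast and 6 of 7 cycling cell markers, and for 1332 of all 15491 genes. PTPRC, of the macrophage list, had a log2 fold change of -0.04. Schwann cell (152 to 266 against 115 to 203 CPM, 6 of 7) and skeletal muscle markers (2.96 to 62.9 against 4.29 to 31.3 CPM, 5 of 7) overlapped. No marker present in the table was at 0 in all libraries. In developing replicates 1 to 4 the ameloblast markers summed to 5208, 9172, 21137 and 33411 CPM. The odontoblast markers summed to 192202, 180741, 43783 and 36799 CPM in the same order. The part of cell composition in the differences of the 7 genes was not tested.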

How the data were processed

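RNA of whole teeth was sequenced in 8 libraries, per the labels' protocols with a stranded mRNA kit and paired reads of 59 bases. The authors deposited gene-level estimated counts, unscaled, made with kallisto per the submitters' processing notes. The version, strand setting, genome build and annotation were not given in the sources used here. Non-whole values made up 33.6% of the deposited counts (tolerance 1e-06), and all were rounded. Kallisto divides reads between similar transcripts, so values of close paralogs are uncertain. Of 22488 row names, 22407 matched the RefSeq symbols of assembly MPM_Emac_v1.0, used for names and neighbours only. The 81 others (0.909% to 1.41% of a library) were left out.

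Genes were filtered with filterByExpr and tested with edgeR 4.0.16 (TMM, quasi-likelihood, no covariate, R 4.3.3), with adjustment over 15491 genes. DESeq2 1.42.0 was an alternative. Each standard error is the log2 fold change over the root of F, and 95% intervals use the fit's degrees of freedom. Ratios used a pseudocount of 0.5. The members, lists and tests were chosen with earlier results of these data known. Named genes were the members, from each list those past the threshold and otherwise the 3 with the smallest p, and the 2 closest genes per member. Some further list genes are named for their known role, chosen after their values were seen. Deviations from the tissue mean correlated at 0.16 to 0.68 between same-numbered libraries, and at -0.52 to 0.41 between libraries of different number. These ranges overlap, so they do not show whether the numbers are pairs. The replicate block, the sign flips and the side-by-side differences treated them as pairs, and the main fit did not. The scripts were tested on simulated counts.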

Additional observations from a re-analysis of the deposited data

Results flagged for a closer look

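The log2 ratio of MSX1 to MSX2 counts was -1.39 in functional replicate 4, the male library, while functional replicates 1, 2 and 3 stood at -2.38, -2.55 and -2.39. Its gap to the nearest library was 0.849 of the range of the 4 libraries, above Dixon's 95% critical value. It was the only one of 20 groups of 4 libraries (7 levels and 3 ratios in each tissue) to pass, and chance flags about 1 in 20. MSX1 stood at 92.4 CPM and MSX2 at 242 CPM in that library.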

How the results depend on the processing

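The 7 log2 fold changes kept their negative sign under every alternative run. These runs reuse the same libraries, and how many of all genes kept their sign was not counted. DESeq2 called 721 genes higher and 959 lower (edgeR 124 and 312) and 3 of the 7 lower: DLX2 at -0.98, DLX3 at -0.44 and MSX2 at -0.54. Total counts without TMM called 7453 genes lower and 6 of the 7, with DLX2 at -1.59, DLX3 at -1.05, DLX5 and DLX6 at -0.86, MSX1 at -1.15 and MSX2 at -1.14. The replicate block gave 69 higher and 151 lower genes and changed no call of the 7 genes. For the ratios, sign flips over 4 pairs cannot give a p below 0.125, so no call was possible. With sex as a covariate 246 genes were higher. Among the female libraries 1 gene was higher (LOC129337569) and 2 lower (CACNA2D3 and HS3ST3B1, named after their values were seen). Leaving out 1 library gave 2 to 184 higher and 5 to 457 lower genes, lowest without functional replicates 4 and 3 in that order, and 0 of the 7 called each time. The log2 ranges were -0.99 to -0.12 for DLX1, -1.14 to -0.78 for DLX2, -0.51 to -0.38 for DLX3, -0.41 to -0.18 for DLX5, -0.37 to -0.18 for DLX6, -0.81 to -0.41 for MSX1 and -0.64 to -0.50 for MSX2. For male minus female, 725 genes were called, 1730 with DESeq2 and 414 to 520 without 1 female number, and for the interaction 0, or 20 with DESeq2. Ratio differences that changed sign were within the spread: DLX1 to DLX2 was 0.19 with a pseudocount of 5 and -0.61 to 0.85 with 1 library left out, DLX5 to DLX6 -0.08 to 0.09 and MSX1 to MSX2 -0.28 to 0.11. The cause of these changes was not tested. DLX1 had the fewest counts, 2 to 136 per library, and the widest interval of the 7.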
